A study of Rattus norvegicus with 9 samples.

Results

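PPAR alpha is the nuclear receptor that turns on fat burning in the liver, and 8 genes of its programme were followed through rat livers with acute-on-chronic liver failure (ACLF) and through extracorporeal treatment. They were chosen by name as Ppara itself and 7 genes that it is known to activate, Cpt1a, Cpt2, Acadm, Ehhadh, Fgf21, Pdk4 and Angptl4. All 8 were found among the 32883 genes of the deposited tables, and all 8 passed the filter on low counts that left 14089 genes for testing. None of the 8 encodes an enzyme of ketone synthesis, so ketogenesis was read from 4 further genes of a written list.

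Liver RNA was sequenced from 9 rats in 3 groups of 3, which the labels number as biological replicates. The methods describe the rats of the study as male Sprague-Dawley, 8 to 11 weeks of age, and name no other kind for the normal group. The normal group was labelled as normal rat, with no treatment named. ACLF was produced by ligation of the common bile duct for 21 days followed by intraperitoneal lipopolysaccharide (LPS) at 0.25 mg/kg. Both treated groups carried both injuries. In the empty group, blood was circulated through the device for 2 h, starting 1 h after LPS, with neither hepatic organoids nor the leukocyte column in the circuit. In the UTOpiA group, the same circulation held a granulocyte and monocyte apheresis column and encapsulated organoids of human hepatocyte-like cells. These were made from induced pluripotent stem cells. The livers of both ACLF groups were taken 24 h after LPS from rats that had survived to that time, so rats that died earlier are not represented. No circulation was named for the normal group.

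During fasting and other states in which fatty acids reach the liver, PPAR alpha binds them, pairs with a retinoid X receptor and raises transcription of genes that import, activate and oxidise fat. CPT1A loads long-chain fatty acids onto carnitine at the outer mitochondrial membrane, CPT2 unloads them inside, and acyl-CoA dehydrogenases such as ACADM shorten them by beta-oxidation, while EHHADH acts in the peroxisome. The acetyl-CoA that is formed feeds ketone synthesis. PDK4 holds back pyruvate dehydrogenase and so spares glucose, FGF21 is a hormone released by the fasting liver, and ANGPTL4 is a secreted inhibitor of lipoprotein lipase.

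The 9 libraries held 14241172 to 17321677 counted reads, and the lowest count of any of the 8 genes in any liver was 33. The hepatocyte markers were present: 11 of the 12 listed were in the tables and all 11 were detected, with a summed level of 174223 to 190741 TPM (transcripts counted per length and scaled to the same total in each library) in normal, 46358 to 85901 in empty and 54474 to 83165 in UTOpiA livers. Of these 11, 6 were lower than normal in empty livers and 3 in UTOpiA livers, while all 7 cholangiocyte markers were higher in both. The summed cholangiocyte markers ranged from 14.6 to 24.8 TPM in normal, 323 to 669 TPM in empty and 134 to 425 TPM in UTOpiA livers. In bulk tissue, fewer cells of a type and less RNA per cell cannot be told apart, and the part of cell makeup in the results below was not tested.

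One liver stood apart in these genes. Empty replicate 2 lay more than 2-fold below both other empty livers, in reads scaled by library size (CPM), for 3 of the 8 genes (Cpt1a, Fgf21 and Angptl4), and for 25 of the 102 other pathway genes tested. These were unevenly spread, with 12 of 19 other PPAR alpha targets, 4 of 5 other carnitine shuttle genes, 3 of 14 mitochondrial and 3 of 13 peroxisomal genes, and 0 of 16 receptors and coactivators and 0 of 10 genes of the pyruvate dehydrogenase switch. Over all genes tested the share was 4.65%, and in the other 5 ACLF livers it lay between 1.24% and 3.29%. The same liver lay more than 2-fold above both others for 0 of the 8, for 6 of the 102 and for 5.47% of all genes. It had the highest summed hepatocyte markers of its group (85901 TPM, against 47904 TPM in replicate 1 and 46358 TPM in replicate 3) and the highest Lcn2, a gene of the neutrophil list (2523 TPM, against 290 TPM and 417 TPM), while S100a8 of the same list was lowest there (75.4 TPM, against 250.1 TPM and 503 TPM). Fold changes of the 8 genes that involve the empty group are therefore given with and without it. Since the liver was set apart by its low values in these same genes, leaving it out raises their empty group mean by that choice, and calls made without it are given as a description.

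Where these genes start is shown for the 4 with the lowest fitted values in the UTOpiA group against the empty group, Angptl4, Cpt1a, Pdk4 and Fgf21. All 8 genes matched RefSeq promoters by symbol (GRCr8 assembly, strand of the gene, 250 bases up to the base before the annotated start). Capitals mark the TATA box letters TATAAA and the GC box letters GGGCGG on either strand, where on the other strand they read TTTATA and CCGCCC.
Angptl4, chr7:15258682-15258931, minus strand: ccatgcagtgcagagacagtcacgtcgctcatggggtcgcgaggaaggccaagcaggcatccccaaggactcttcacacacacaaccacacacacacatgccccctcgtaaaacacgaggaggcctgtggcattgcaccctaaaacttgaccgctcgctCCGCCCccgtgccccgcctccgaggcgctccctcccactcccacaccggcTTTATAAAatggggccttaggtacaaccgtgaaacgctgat
Cpt1a, chr1:209995910-209996159, plus strand: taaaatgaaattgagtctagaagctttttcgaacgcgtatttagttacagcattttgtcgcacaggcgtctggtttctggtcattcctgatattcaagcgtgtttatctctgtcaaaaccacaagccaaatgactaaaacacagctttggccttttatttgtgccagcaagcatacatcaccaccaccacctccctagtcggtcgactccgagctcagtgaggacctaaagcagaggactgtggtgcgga
Pdk4, chr4:34568330-34568579, minus strand: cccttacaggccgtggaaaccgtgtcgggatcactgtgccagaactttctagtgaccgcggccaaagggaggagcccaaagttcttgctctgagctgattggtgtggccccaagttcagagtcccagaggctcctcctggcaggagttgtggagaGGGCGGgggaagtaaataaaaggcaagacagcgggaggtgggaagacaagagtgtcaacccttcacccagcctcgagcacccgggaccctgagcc
Fgf21, chr1:105221377-105221626, minus strand: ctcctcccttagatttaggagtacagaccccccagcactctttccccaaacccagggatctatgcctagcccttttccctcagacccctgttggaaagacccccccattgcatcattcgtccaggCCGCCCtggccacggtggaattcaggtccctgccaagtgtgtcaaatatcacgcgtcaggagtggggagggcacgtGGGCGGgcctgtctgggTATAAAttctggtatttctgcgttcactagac
Within these windows TATAAA lay in the promoters of the secreted factors, 32 to 27 bases before the start of Fgf21 and 39 to 34 bases before the start of Angptl4, where it overlaps its copy on the other strand. It was in 2 of the 8 promoters and in 12.9% of all 33469 RefSeq promoters over the same 250 bases, and GGGCGG was in 6 of the 8 and in 30.5% of all. The printed stretch for Cpt1a held neither. The direct repeat that PPAR alpha with its partner is known to bind, AGGTCANAGGTCA, was searched on both strands in the 300 bases that also hold 50 bases after the start. It was in 0 of the 8, also with up to 2 mismatches outside the spacer, against 0.0538% of all promoters for the exact repeat and 3.77% with up to 2 mismatches. The single site AGGTCA was in 0 of the 8 and in 16.2% of all. These are matches of letters only, and the TATA and GC boxes were chosen for display after the repeat search had been seen.

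The order of levels differed between groups. In normal livers, on the TPM scale, which is per transcript length, the mean levels ran from Acadm (484 TPM) through Ehhadh (232 TPM), Cpt2 (123 TPM), Cpt1a (76.3 TPM), Pdk4 (44.4 TPM), Ppara (29.3 TPM) and Angptl4 (25.6 TPM) to Fgf21 (17.7 TPM). The first 4 did not overlap each other, while Cpt1a and Pdk4, Pdk4 and Ppara, Ppara and Angptl4, and Angptl4 and Fgf21 overlapped. In the empty group Angptl4 (201 TPM) and Cpt1a (161 TPM) came next after Acadm (214 TPM), and every pair of neighbours in the order overlapped. In the UTOpiA group Acadm (238 TPM) was again above all others without overlap, Ehhadh, Cpt2, Angptl4 and Cpt1a overlapped their neighbours, and Pdk4 (22.6 TPM) lay below Cpt1a without overlap but overlapped Angptl4. Ppara (14.4 TPM) and Fgf21 (6.31 TPM) followed without overlap. The plot of TPM by liver shows the 8 genes.

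**Figure D1:**
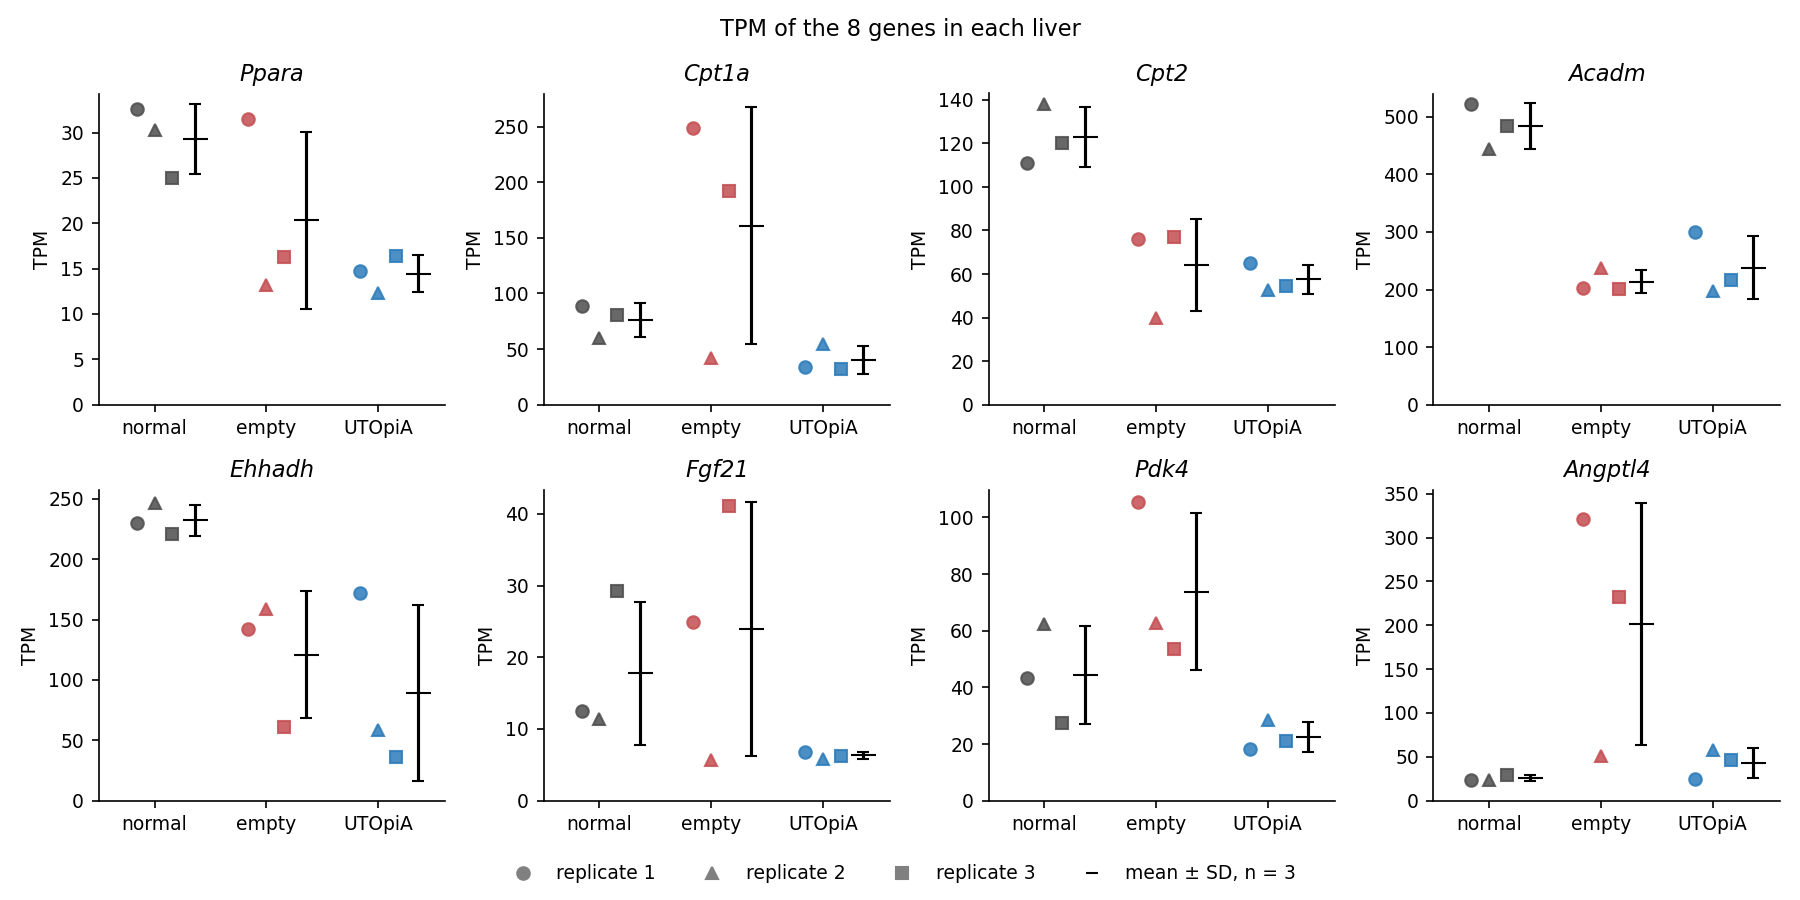
Level of the 8 genes in each liver, in TPM on linear axes that start at 0, by group, with 1 symbol per replicate and the mean ± SD (n = 3) beside the points. Angptl4 and Cpt1a were high in empty replicates 1 and 3 and not in replicate 2, Fgf21 was between 5.88 and 6.83 TPM in the UTOpiA livers, and Acadm and Cpt2 were lower in all ACLF livers than in all normal livers.

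Comparing the empty group with normal livers asks what ACLF, with circulation of blood through a circuit without cells or column, did to this programme. The mitochondrial enzymes Acadm and Cpt2 and the receptor gene Ppara fell, and Angptl4 rose. Called genes differed more than 2-fold with an adjusted p under 0.05 by the edgeR quasi-likelihood test (Benjamini-Hochberg, 14089 genes). By that rule 3 of the 8 genes were lower, where 11.1% of all genes tested were, and 1 was higher, where 20.7% of all genes were. The median log2 fold change of the 8 was -0.57, beside 0.045 over all genes, and -0.23 without empty replicate 2, with 4 positive and 4 negative. In TPM, 3 of the 8 lay below the normal range in all 3 empty livers (Cpt2, Acadm and Ehhadh), where 12.8% of all genes did, and 1 lay above it (Angptl4), where 53.4% did.

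The receptor gene Ppara stood at 32.6, 30.3 and 25.0 TPM in normal livers, at 31.5, 13.2 and 16.3 TPM in the empty group and at 14.7, 12.3 and 16.4 TPM in the UTOpiA group. In TPM, empty replicate 1 lay within the normal range, and every other ACLF liver lay below every normal liver. The scaling factors of the edgeR test, which TPM do not carry, were 0.80 to 0.83 in normal livers and 1.11 in empty replicate 1. A larger factor lowers a value on the scale of the test, so that range holds for TPM only. The log2 fold change of the empty group against normal was -1.02 ± 0.36 (SE, n = 3, edgeR adjusted p = 0.0432). Leaving out normal replicate 1, 2 or 3, empty replicate 2 or 3 or UTOpiA replicate 1 each ended the call, with log2 fold changes of -1.12 to -0.79 (-0.79 without empty replicate 2, adjusted p = 0.108). The call was also lost with no filter on low counts (log2 fold change -1.02), with only the 6 libraries compared (edgeR adjusted p = 0.0547) and with limma (-0.62 to -0.59). Over the 19 alternative analyses the adjusted p ranged from 0.00298 to 0.149. The TPM of the groups overlapped (exact permutation p = 0.3, two-sided, where the smallest p that 3 against 3 can give is 0.1).

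Acadm, the medium-chain acyl-CoA dehydrogenase of mitochondrial beta-oxidation, stood at 523, 443 and 485 TPM in normal livers, at 202, 237 and 202 TPM in the empty group and at 300.1, 197 and 216 TPM in the UTOpiA group. Every ACLF liver was below every normal liver. In the empty group it was 3.24-fold lower (log2 fold change -1.70 ± 0.25, SE, n = 3, edgeR adjusted p = 0.000691; -1.79 without empty replicate 2). The call held with each liver left out in turn.

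Cpt2, which releases the fatty acid from carnitine inside the mitochondrion, stood at 111, 138 and 120.0 TPM in normal livers, at 76.0, 39.9 and 76.8 TPM in the empty group and at 65.1, 52.8 and 54.6 TPM in the UTOpiA group. The ACLF livers were again all below the normal ones. Cpt2 was 2.75-fold lower in the empty group (log2 fold change -1.46 ± 0.27, SE, n = 3, edgeR adjusted p = 0.00199; -1.22 without empty replicate 2).

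Cpt1a, the carnitine palmitoyltransferase that sets the rate of entry of long-chain fatty acids, did not follow Cpt2. It stood at 88.9, 59.6 and 80.3 TPM in normal livers, at 249, 42.2 and 192 TPM in the empty group and at 33.9, 54.5 and 31.7 TPM in the UTOpiA group. Empty replicates 1 and 3 were the highest of the 9 livers, and empty replicate 2 lay within the range of the UTOpiA livers. With all 9 libraries the log2 fold change of the empty group against normal was 0.56 ± 0.52 (SE, n = 3, edgeR adjusted p = 0.398). Without empty replicate 2 it was 1.01 and was called (adjusted p = 0.00961), so 1 liver decided the call. In that fit 2 of the 8 were higher (Angptl4 and Cpt1a), where 20.4% of all genes were, and 2 were lower (Acadm and Cpt2), where 12.3% were. DESeq2 without that liver also called 2 higher, where 19.4% of all genes were, and 3 lower (Acadm, Ehhadh and Cpt2), where 11.3% were.

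Ehhadh, the bifunctional enzyme of peroxisomal beta-oxidation, stood at 230, 246 and 221 TPM in normal livers, at 143, 159 and 60.7 TPM in the empty group and at 172, 58.3 and 36.5 TPM in the UTOpiA group. All ACLF livers were below all normal livers, with a spread of over 4-fold among the UTOpiA livers. The log2 fold change of the empty group was -1.44 ± 0.55 (SE, n = 3, edgeR adjusted p = 0.0578), which missed the threshold, and -1.68 without empty replicate 2 (adjusted p = 0.0662). It passed when UTOpiA replicate 1 or 3 was left out of the shared fit (-1.44 in both) and with only the 6 libraries compared (-1.42). It passed also with DESeq2 on all 9 libraries (-1.43), which called 4 of the 8 lower where 10.1% of all genes were.

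Angptl4 moved furthest. It stood at 23.4, 24.1 and 29.3 TPM in normal livers, at 321, 51.1 and 232 TPM in the empty group and at 24.3, 57.6 and 46.5 TPM in the UTOpiA group. Every empty liver lay above every normal liver, and empty replicate 2 lay within the UTOpiA range. Angptl4 was 5.52-fold higher in the empty group (log2 fold change 2.46 ± 0.61, SE, n = 3, edgeR adjusted p = 0.00981; 2.92 without empty replicate 2, adjusted p = 0.000364).

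Fgf21, the fasting hormone, stood at 12.6, 11.4 and 29.2 TPM in normal livers, at 25.0, 5.71 and 41.1 TPM in the empty group and at 6.83, 5.88 and 6.23 TPM in the UTOpiA group. The empty livers spread around the normal ones on both sides, and the log2 fold change of -0.12 ± 0.61 (SE, n = 3, edgeR adjusted p = 0.884) took the opposite sign without empty replicate 2 (0.33). Pdk4, a kinase that switches off pyruvate dehydrogenase, stood at 43.5, 62.3 and 27.5 TPM in normal livers, at 105, 62.5 and 53.4 TPM in the empty group and at 18.2, 28.3 and 21.2 TPM in the UTOpiA group. Its log2 fold change in the empty group was 0.24 ± 0.35 (SE, n = 3, edgeR adjusted p = 0.598; 0.34 without empty replicate 2).

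**Figure D2:**
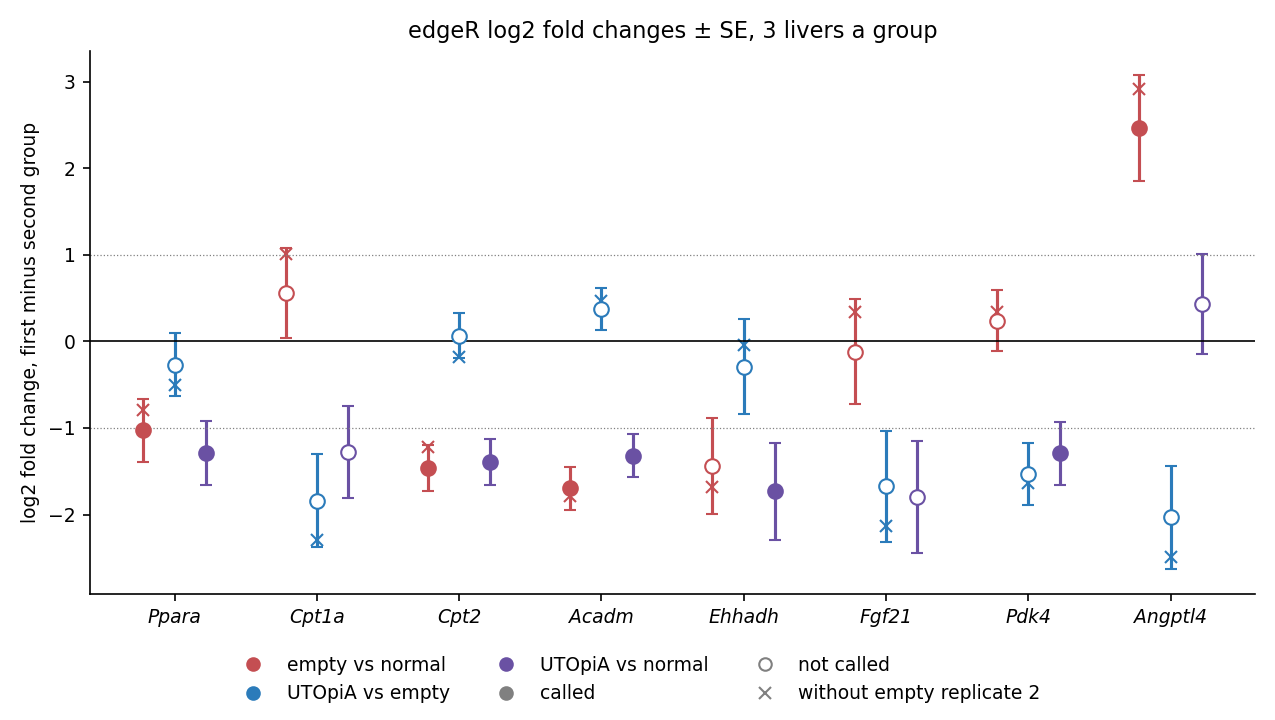
Log2 fold change ± SE from edgeR (first minus second group, 3 livers a group) of the 8 genes in the 3 comparisons, with filled circles for called genes, open circles for genes not called, crosses for the value without empty replicate 2 and dotted lines at the 2-fold limits. Acadm and Cpt2 lay below 0 against normal in both ACLF groups, and Angptl4, Cpt1a, Pdk4 and Fgf21 lay between -2.03 and -1.53 in the comparison of UTOpiA with empty, where 0 genes were called with all 9 libraries.

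Comparing the UTOpiA group with the empty group asks what the organoids and the column added. The 4 genes with the lowest fitted values were Angptl4, Cpt1a, Fgf21 and Pdk4, at -2.03 to -1.53 on the log2 scale, while Ppara, Cpt2, Acadm and Ehhadh lay between -0.29 and 0.37. With all 9 libraries edgeR called 0 of the 8, and 0 of all 14089 genes (0%). At an unadjusted p under 0.05 it had 4 of the 8 lower and 0 higher, where 4.56% of all genes were lower and 5.77% were higher. DESeq2, the tool of the study, called 3 of the 8 lower (Angptl4, Cpt1a and Pdk4), where it called 0.511% of genes lower, and without empty replicate 2 it called 4 (Fgf21 added), where it called 0.994%. The empty livers are the same in this comparison and the one before it, so a high empty liver moves both.

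The log2 fold change of Angptl4 was -2.03 ± 0.60 (SE, n = 3, edgeR adjusted p = 0.364). Without empty replicate 2 it was -2.49 and was called (adjusted p = 0.0455), and over all alternatives the adjusted p ranged from 4.25e-09 to 0.816. The UTOpiA livers and empty replicate 2 overlapped in TPM (exact permutation p = 0.2).

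For Cpt1a the log2 fold change was -1.84 ± 0.54 (SE, n = 3, edgeR adjusted p = 0.357). It was -2.29 without empty replicate 2 and was called (adjusted p = 0.024). Both genes thus passed the threshold in edgeR only when the liver that resembled the UTOpiA livers in them was left out, and 0.153% of all genes were called lower in that analysis.

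Pdk4 was the one gene of the 8 whose TPM did not overlap, at 53.4 to 105 TPM in the empty group and 18.2 to 28.3 TPM in the UTOpiA group. TPM were lower without overlap for 8.62% of all genes. Its log2 fold change was -1.53 ± 0.36 (SE, n = 3, edgeR adjusted p = 0.27, exact permutation p = 0.1). It was -1.64 without empty replicate 2 (adjusted p = 0.115), and DESeq2 gave an adjusted p of 0.00657.

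The UTOpiA livers were alike in Fgf21, and the empty livers were not. The log2 fold change was -1.67 ± 0.64 (SE, n = 3, edgeR adjusted p = 0.439) and -2.13 without empty replicate 2 (adjusted p = 0.0714). Acadm (0.37 ± 0.24, SE), Cpt2 (0.066 ± 0.26), Ppara (-0.27 ± 0.36) and Ehhadh (-0.29 ± 0.54) had adjusted p-values of 0.631 to 0.956 with edgeR, and their TPM overlapped between the groups. Leaving out empty replicate 2, the 4 values were 0.47 (Acadm), -0.18 (Cpt2), -0.50 (Ppara) and -0.046 (Ehhadh).

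Beside these values, edgeR called 0 of the 7 neutrophil markers tested, and DESeq2 on all 9 libraries and edgeR without empty replicate 2 each called 1 (Lcn2, higher). Of the 7, 6 had a negative log2 fold change and the median was -0.64 (-1.10 without empty replicate 2). Their summed level went the other way, at 5534 to 6700 TPM in UTOpiA and 834 to 2710 TPM in empty livers, of which Lcn2 was 5359 to 6310 TPM and 290 to 2523 TPM. Mpo and Elane, granule genes of that list, did not pass the filter for testing. Mpo was at 3 counts or fewer and Elane at 9 counts or fewer in every liver. The 11 hepatocyte markers had a median log2 fold change of 0.48 (0.93 without empty replicate 2), with 10 of 11 positive and 0 called by edgeR. Of the 4 erythroid markers tested, 3 were lower without overlap in TPM (Hba-a1, Hbb and Alas2) and 0 were called by edgeR or DESeq2, with a summed level of 723 to 1183 TPM in UTOpiA and 2175 to 3210 TPM in empty livers. All 7 cholangiocyte markers had a negative log2 fold change (median -0.61, 0 called by edgeR or DESeq2), and their sums overlapped. The part of any of these markers in the lower values of the 4 genes was not tested.

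Comparing the UTOpiA group with normal livers asks how far the treated ACLF livers were from health. Of the 8 genes, 5 were lower (Ehhadh, Cpt2, Acadm, Pdk4 and Ppara) and 0 were higher, where 6.81% of all genes tested were lower and 18.2% were higher. In TPM, 6 of the 8 lay below the normal range in all 3 UTOpiA livers (all but Pdk4 and Angptl4), where 13.4% of all genes did. The median log2 fold change of the 8 was -1.31, beside 0.053 over all genes. The normal livers are shared with the comparison of the empty group.

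The enzymes and the receptor fell 2.45-fold to 3.32-fold. Ehhadh was 3.32-fold lower (log2 fold change -1.73 ± 0.56, SE, n = 3, edgeR adjusted p = 0.0362), Cpt2 was 2.63-fold lower (-1.39 ± 0.27, adjusted p = 0.00347) and Acadm was 2.50-fold lower (-1.32 ± 0.25, adjusted p = 0.00315). Ppara and Pdk4 were both 2.45-fold lower (-1.29 ± 0.37 and -1.29 ± 0.36, adjusted p = 0.0219 and 0.0199). The calls of Acadm and Cpt2 held with each liver left out in turn. Ppara was not called without normal replicate 1 or 2 or UTOpiA replicate 1 or 2 (-1.28 to -1.08), Pdk4 without normal replicate 2 or UTOpiA replicate 1 or 2 (-1.33 to -0.99), and Ehhadh without any one normal replicate or UTOpiA replicate 2 or 3 (-1.76 to -1.42). Ehhadh was also not called with no filter on low counts (-1.72, edgeR adjusted p = 0.0611).

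Fgf21 had the lowest fitted value, -1.80 ± 0.65 (SE, n = 3, edgeR adjusted p = 0.0528), and Cpt1a had -1.28 ± 0.53 (adjusted p = 0.0831), and neither passed. Fgf21 passed also without empty replicate 3 (-1.79). Both passed with DESeq2 on all 9 libraries, which called 7 of the 8 lower where 6.73% of all genes were, and with only the 6 libraries compared (-1.80 for Fgf21 and -1.27 for Cpt1a). Both passed also in the edgeR fit without empty replicate 2, which is in neither group compared but shares the spread, the filter and the adjustment over genes, with adjusted p = 0.00681 for Fgf21 and 0.00249 for Cpt1a, so that 7 of the 8 were lower there, where 7.38% of all genes were. Angptl4 was 0.43 ± 0.58 above normal on the log2 scale (edgeR adjusted p = 0.584). In TPM, without the scaling of the test, UTOpiA replicate 1 lay within the normal range and the other UTOpiA livers above it.

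The genes around the 8 were read from written lists, which overlap each other in a few genes. Of 102 other genes of the pathway that were tested, 40 were lower than normal and 8 higher in empty livers, where 11.1% of all genes were lower and 20.7% higher. In UTOpiA livers 31 were lower and 7 higher, where the shares over all genes were 6.81% and 18.2%. Each list below is to be read against these shares. In empty livers 37 of 103 were lower and 19 higher without empty replicate 2, where 12.3% and 20.4% of all genes were. That liver was set apart by low values in pathway genes, so counts without it are a description, here and in the lists below. DESeq2 on all 9 libraries called 43 of 103 lower and 11 higher in empty livers, where 10.1% and 19.6% of all genes were. Between UTOpiA and empty edgeR called 0 of the 102 with all 9 libraries. DESeq2 called 1 higher (Echs1) and 1 lower (Lpin1), where 0.352% and 0.511% of all genes were. Echs1 was high in UTOpiA replicate 2 alone (31.1 TPM). It stood at 0.88 and 1.46 TPM in UTOpiA replicates 1 and 3 and at 1.10 to 1.22 TPM in the empty livers. Eci2, Acaa1b, Decr2, Cd36, Sirt1 and Klb were not analysed here.

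In ketone synthesis, 3 of 4 genes fell in empty livers and 2 in UTOpiA livers. Bdh1, which makes beta-hydroxybutyrate from acetoacetate, was 9.02-fold lower in the empty group (log2 fold change -3.17 ± 0.47, SE, n = 3, edgeR adjusted p = 0.000806) and 7.04-fold lower in the UTOpiA group (-2.82 ± 0.46, adjusted p = 0.00189). Acat1, the thiolase that joins acetyl-CoA, fell by 1.62 and by 1.79 on the log2 scale (adjusted p = 0.00238 and 0.00213). Median log2 fold changes of the 4 genes were -1.46 (empty) and -1.39 (UTOpiA).

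In the carnitine shuttle, 1 of the other 5 genes was higher in each ACLF group and 0 were lower. This was Slc22a5, the plasma membrane carnitine transporter, at 2.49-fold the normal level in the empty group (log2 fold change 1.32 ± 0.39, SE, n = 3, edgeR adjusted p = 0.0217) and 2.18-fold in the UTOpiA group (1.12 ± 0.39, adjusted p = 0.0479). The first call was lost without any one normal replicate or empty replicate 1 or 3 (0.94 to 1.39) and the second without any one normal or UTOpiA replicate or empty replicate 3 (0.96 to 1.25), while without empty replicate 2 Cpt1b, the muscle form of CPT1, was called higher too in both groups. Slc25a20, the carnitine carrier of the inner membrane, ranged from 114 to 126 TPM in normal, 61.6 to 195 TPM in empty and 115 to 127 TPM in UTOpiA livers and was not called. Among the 3 CPT1 genes, Cpt1a made up 98.3% ± 0.55 of the summed TPM in normal livers, 97.0% ± 1.64 in empty and 92.2% ± 1.19 in UTOpiA livers (SD, n = 3). In the UTOpiA group its share was below that of every other liver (exact permutation p = 0.1 against each group, the smallest possible), while Cpt1b stayed at 3.29 TPM or less in every liver.

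Malonyl-CoA, the product of acetyl-CoA carboxylase, is the natural brake on CPT1. All 3 genes of its supply and removal fell in both ACLF groups. Acaca, the carboxylase of fat synthesis, was 11.9-fold lower in the empty group (log2 fold change -3.57 ± 0.43, SE, n = 3, edgeR adjusted p = 0.000288) and 11.3-fold lower in the UTOpiA group (-3.50 ± 0.43, adjusted p = 0.00048). Acacb, the carboxylase at the mitochondrial surface, fell by 2.64 and by 2.11 on the log2 scale (adjusted p = 0.0113 and 0.0326), and Mlycd, which breaks malonyl-CoA down, fell by 1.14 and by 1.34 (adjusted p = 0.00479 and 0.00309). Mlycd was at -0.91 and not called in the empty group without empty replicate 2, and Acacb was not called in the UTOpiA group without any one normal replicate or UTOpiA replicate 2 or 3 (-2.15 to -1.81).

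In mitochondrial beta-oxidation, 6 of 14 genes fell in empty and 2 in UTOpiA livers, and 0 rose by edgeR on all 9 libraries. Acads, the short-chain acyl-CoA dehydrogenase, fell by 1.68 in the empty group and by 1.17 in the UTOpiA group (log2; edgeR adjusted p = 0.000798 and 0.00596). Acadl, the long-chain enzyme, fell by 1.39 (adjusted p = 0.00155) and Etfb, a subunit of the flavoprotein that takes the electrons, by 1.28 (adjusted p = 0.00203) in the empty group. Etfa, its partner subunit, fell by 1.05 in the UTOpiA group (adjusted p = 0.00386). Without UTOpiA replicate 2 neither gene of that group was called (Acads -0.94, Etfa -0.87), and without UTOpiA replicate 3 there were 4. Eci1, an enoyl-CoA isomerase, was called higher in the empty group by DESeq2 on all 9 libraries and, without empty replicate 2, by edgeR in each ACLF group, where 20.4% and 18.8% of all genes were higher. Without that liver 4 of the 14 were lower in the empty group. Acadvl (119 to 235 TPM over all livers) and Hadha (102 to 257 TPM) passed in neither.

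In peroxisomal beta-oxidation, 6 of 13 genes fell in empty and 4 in UTOpiA livers. Acox2, an oxidase of branched and bile acid side chains, fell by 1.98 in the empty group (log2, edgeR adjusted p = 0.00107). In the UTOpiA group, Abcd3, a peroxisomal fatty acid importer, fell by 1.53 and Acaa1a, the thiolase, by 1.26 (adjusted p = 0.00371 and 0.00468). Ech1 was called higher in the empty group by DESeq2 on all 9 libraries, and Ech1 and Pex11a by edgeR without empty replicate 2, where 4 of the 13 were lower.

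The other PPAR alpha targets did not move together. Of 19 tested, 1 was higher and 2 were lower in the empty group, where 20.7% and 11.1% of all genes were, so the share that was lower was near the background. In the UTOpiA group 1 was higher and 4 were lower, where 18.2% and 6.81% of all genes were. Fabp1, the liver fatty acid binding protein, stood at 8694 to 11398 TPM in normal livers, at 799 to 1767 TPM in the empty group and at 1436 to 4105 TPM in the UTOpiA group (10.7-fold and 3.82-fold lower; edgeR adjusted p = 0.000895 and 0.0136). Acsl1, the main acyl-CoA synthetase of the liver, was 11.1-fold lower in the empty group and 6.82-fold lower in the UTOpiA group (adjusted p = 0.000332 and 0.00121). Ucp2, an inner membrane carrier, was 11.1-fold and 7.72-fold higher (adjusted p = 6.12e-05 and 0.000149). Plin2, a lipid droplet coat protein, was 4.24-fold lower in the UTOpiA group than in normal livers (log2 fold change -2.08, adjusted p = 0.0345). That call was lost without any one normal or UTOpiA replicate (-2.44 to -1.84).

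The omega-hydroxylase Cyp4a1 stood at 85.4, 156 and 132 TPM in normal livers, at 405, 62.6 and 430 TPM in the empty group and at 183, 315 and 234 TPM in the UTOpiA group. Vnn1, a pantetheinase, stood at 11.5, 11.04 and 18.4 TPM, at 47.6, 4.66 and 30.9 TPM and at 16.5, 35.4 and 24.8 TPM. In both genes, empty replicate 2 was the lowest of the 9 livers and the other two empty livers were above every normal one. With all 9 libraries neither was called in any comparison. Without empty replicate 2, which lay low in 12 of these same 19 targets, 7 were called higher than normal in the empty livers (Acot1, Ucp2, Cyp4a3, Acot2, Plin5, Cyp4a1 and Vnn1) and 2 lower (Fabp1 and Acsl1), where 20.4% and 12.3% of all genes were. As the liver was set apart by these genes, that count is a description and no test of them.

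**Figure D3:**
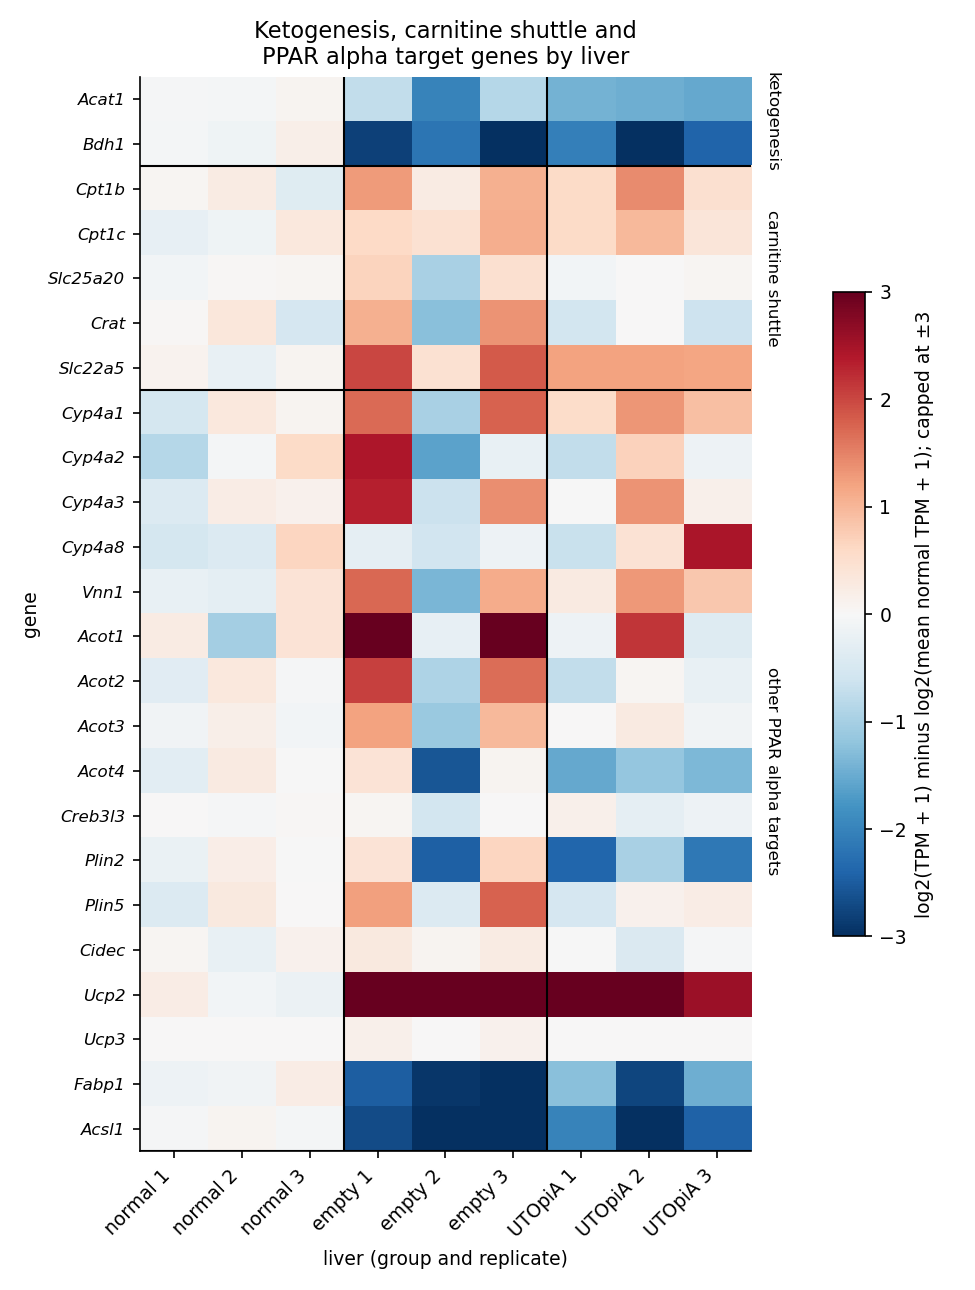
Level of genes of ketogenesis, the carnitine shuttle and the other PPAR alpha targets in each liver, as log2(TPM + 1) minus the log2 of the mean normal TPM + 1, with colours capped at ±3. Empty replicates 1 and 3 were above normal and empty replicate 2 below it in Cyp4a1, Vnn1 and Acot2, while Bdh1, Fabp1 and Acsl1 were below normal in all 6 ACLF livers and Ucp2 above it.

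Among the receptors and their partners, 5 of 16 genes fell and 1 rose in the empty group. Rxra, the main partner of PPAR alpha, ranged from 152 to 167 TPM in normal, 60.8 to 106 TPM in empty and 89.5 to 109 TPM in UTOpiA livers, and fell by 1.49 ± 0.28 in the empty group (log2, SE; edgeR adjusted p = 0.00208). Rxrg fell by 2.55, the coactivator Ppargc1b by 1.71 and Pparg by 3.93 (adjusted p = 0.000461, 0.0049 and 0.00101), and Ppard rose by 1.04 (adjusted p = 0.0168), a call that was lost without normal replicate 3 (0.81) or empty replicate 2 (0.69). Pparg, the receptor of fat storage, was at 12 counts or fewer in each ACLF liver and fell by 4.12 in the UTOpiA group (adjusted p = 0.00134). Ppargc1a, the fasting coactivator, was at 2.13 to 4.28 TPM over the 9 livers, and Creb3l3, which acts with PPAR alpha on Fgf21, was at 184 to 297 TPM; neither was called in any comparison.

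Fgf21 acts on FGF receptors, of which 2 of 4 rose in each ACLF group. In the empty group Fgfr3 rose 7.46-fold and Fgfr1 4.98-fold (edgeR adjusted p = 0.00112 and 0.00259), and without normal replicate 3 only 1 of the 4 was called in the UTOpiA group. Cholangiocyte and stromal markers were higher in the same livers, and the part of those cells in these receptor values was not tested.

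The pyruvate dehydrogenase switch changed more than Pdk4 alone. Of its 10 other genes, 8 fell and 2 rose in each ACLF group (1 rose in the UTOpiA group without normal replicate 1 or 2 or UTOpiA replicate 2). Pdk1 and Pdk2, the other main kinases of the liver, were 5.37-fold and 5.16-fold lower in the empty group (log2 fold changes -2.43 ± 0.29 and -2.37 ± 0.37, SE, n = 3, edgeR adjusted p = 0.000287 and 0.00103) and 4.71-fold and 4.14-fold lower in the UTOpiA group (adjusted p = 0.000614 and 0.0027). Pdk3 rose by 3.47 and by 3.22 from 0.41 TPM in normal livers (log2, adjusted p = 0.000163 and 0.000342). Dlat, a core subunit of the dehydrogenase, fell by 2.34, and Pdp1, an opposing phosphatase, rose by 1.68 in the empty group (log2, edgeR adjusted p = 4.71e-05 and 0.00818). Pdp2, the other opposing phosphatase of the list, was called lower in both ACLF groups. Its mean was 21.6 TPM in normal, 8.90 TPM in empty and 10.9 TPM in UTOpiA livers, beside 1.21, 5.64 and 4.70 TPM for Pdp1.

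As a share of the summed TPM of the 4 kinases, Pdk4 held 14.3%, 18.2% and 10.7% in normal, 61.7%, 40.3% and 42.5% in empty and 14.5%, 28.8% and 26.2% in UTOpiA livers. The empty livers were above all others, including replicate 2, and the UTOpiA livers overlapped the normal ones. The share differed by 33.8 percentage points between empty and normal and by 25.0 points between empty and UTOpiA (exact permutation p = 0.1 in each, the smallest possible; p = 0.2 between UTOpiA and normal). The summed level of the 4 kinases was 256 to 342 TPM in normal, 125 to 171 TPM in empty and 80.9 to 125 TPM in UTOpiA livers. Within this smaller total Pdk4 was the highest of the 4 in empty replicates 1 and 3, while in replicate 2 Pdk2 (66.0 TPM) was above Pdk4 (62.5 TPM). These shares were computed after the values of the genes had been seen.

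**Figure D4:**
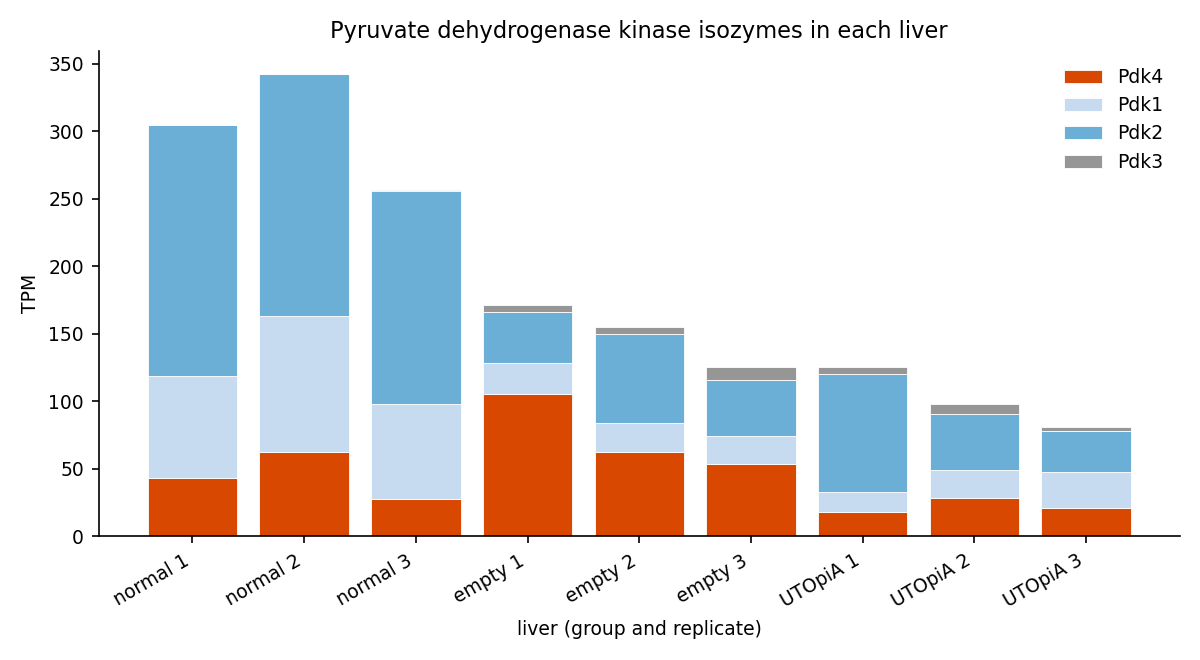
TPM of the 4 pyruvate dehydrogenase kinase genes stacked for each liver, on an axis that starts at 0. The summed level was 256 to 342 TPM in the normal livers and 171 TPM or less in every ACLF liver, and Pdk4 made up 40.3% to 61.7% of it in the empty livers.

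The enzyme that ANGPTL4 inhibits rose in the same livers. Lpl, lipoprotein lipase, which adult hepatocytes barely make, stood at 0.28 to 0.93 TPM in normal livers (9 to 29 counts), at 93.3, 30.1 and 175 TPM in the empty group and at 35.0, 100.5 and 43.2 TPM in the UTOpiA group. It was 108-fold higher in the empty group (log2 fold change 6.75 ± 0.77, SE, n = 3, edgeR adjusted p = 0.000287) and 72.5-fold higher in the UTOpiA group (6.18 ± 0.75, adjusted p = 0.000584). The 8 macrophage markers, cells that make this lipase, summed to 326 to 397 TPM in normal, 1146 to 1594 TPM in empty and 589 to 1454 TPM in UTOpiA livers, and their part in the rise was not tested. Lipc, the hepatic lipase, fell by 2.31 in the empty group (log2, adjusted p = 0.00579).

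In fatty acid uptake, activation and lipolysis, taken as 1 list, 8 of 14 genes fell in empty and 7 in UTOpiA livers, and 0 rose (1, Lipe, in the empty group without empty replicate 2). Mgll, which releases the last fatty acid of a glyceride, was 7.47-fold lower in the empty group (edgeR adjusted p = 2.95e-05). The plot of list medians shows that the lists did not shift as 1 block.

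**Figure D5:**
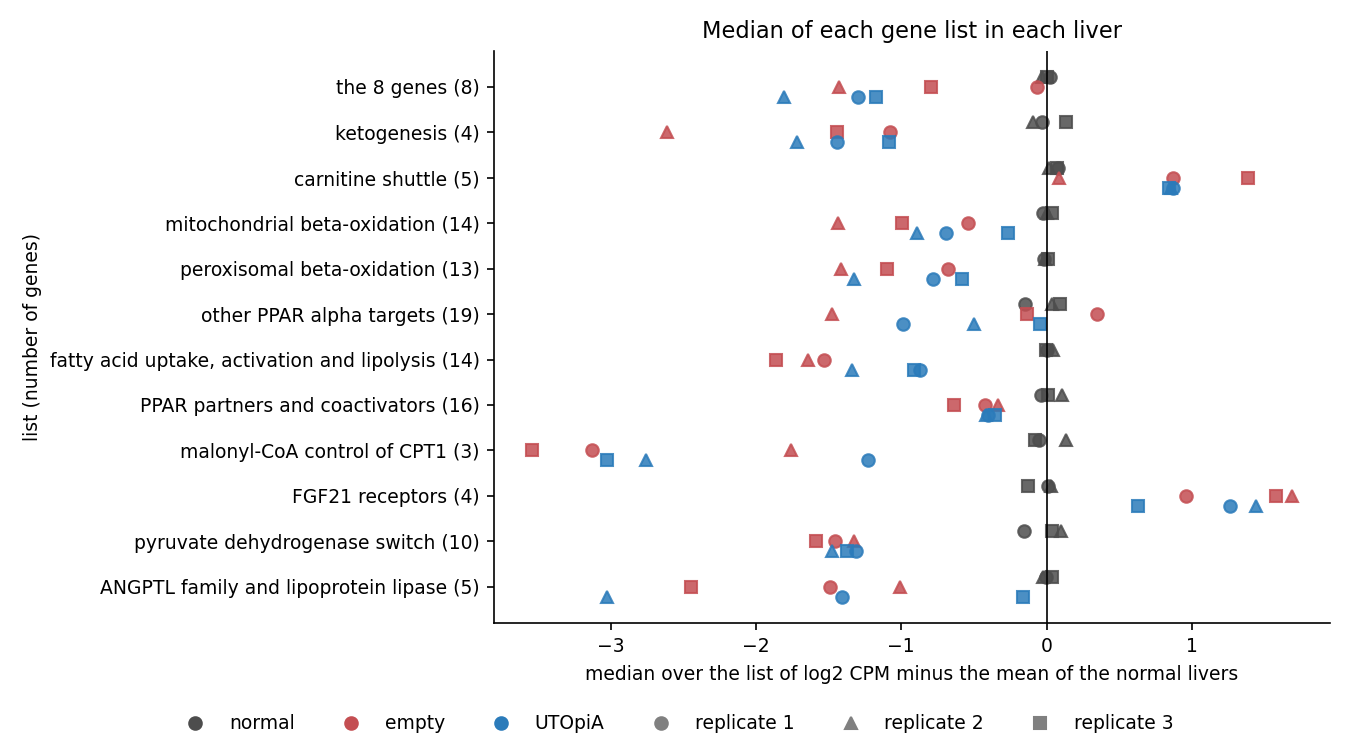
Median, over the genes of each list, of log2 CPM minus the mean of the normal livers, for each liver, with colours for groups and symbols for replicates. The pyruvate dehydrogenase list lay between -1.58 and -1.31 in the 6 ACLF livers, the carnitine shuttle lay above 0 in all 6, and the other PPAR alpha targets ran from -1.48 in empty replicate 2 to 0.35 in empty replicate 1.

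Outside the 8, the comparison of UTOpiA with empty had 14 of 102 pathway genes at an unadjusted p under 0.05, of which 4 were lower and 10 higher, where 4.56% of all genes were lower and 5.77% higher. Without empty replicate 2 there were 34 of 103, of which 22 were lower and 12 higher, where 5.7% of all genes were lower and 9.51% higher. With all 9 libraries the 5 smallest p-values were of Ncoa2, a nuclear receptor coactivator (log2 fold change 0.62, edgeR adjusted p = 0.332), Lpin1, a phosphatidate phosphatase that also coactivates PPAR alpha (-1.49, adjusted p = 0.346, and 0.0252 with DESeq2), Pex11a, a peroxisome division factor (-1.93, adjusted p = 0.395), Fabp1 (1.49, adjusted p = 0.395) and Acox2 (0.93, adjusted p = 0.395). Without empty replicate 2, edgeR called 5 of the 103 lower in UTOpiA (Pex11a, Plin2, Acot2, Acot4 and Crat) and 1 higher (Slc27a5, a bile acid and fatty acid CoA ligase), where 0.153% of all genes were lower and 0.181% were higher. Plin2 was at -2.08 in that fit (edgeR adjusted p = 0.0455), beside -1.58 with all 9 libraries (adjusted p = 0.455). In all 5 lower genes empty replicate 2 lay more than 2-fold below both other empty livers. Leaving it out raised their empty group mean by that choice. The counts without empty replicate 2 in this paragraph are therefore a description and no test. In mitochondrial beta-oxidation 11 of 14 genes had a positive log2 fold change (median 0.35), and 8 of 14 did without empty replicate 2 (median 0.061), so 1 liver moved this list.

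Which genes had the pattern most like each of the 8 over the 9 livers was measured by the root mean square difference of their log2 CPM, each centred on its own mean, among 14081 genes. Nearest to Cpt1a was Pex11a (0.33), followed by Heatr4 (0.39) and Acot2 (0.46), beside a deviation of Cpt1a about its own mean of 0.94. Nearest to Acadm were Tex2, Ddt and Gcdh (all 0.10), nearest to Cpt2 was Got2 (0.14), and nearest to Ppara was Abcd3 (0.23). For Angptl4 the nearest was Sod2 (0.38), for Pdk4 Cyp3a9 (0.43), for Fgf21 RGD1305184 (0.31) and for Ehhadh an unnamed transcript listed as AABR07061950.1 (0.40). These are descriptions over 9 livers of 3 groups, with no test.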

How the data were processed

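Poly(A) RNA of 9 rat livers was sequenced. The authors counted reads per gene and deposited whole-number counts without normalisation, together with TPM, which are scaled for gene length and sum to 1000000 per library. The methods name Cutadapt 1.9.1, HISAT2 2.0.1, featureCounts 2.6.0 and the mouse build GRCm38, whereas the submitters' processing notes name Trimmomatic, HISAT2, featureCounts and the rat build rn6; the strand setting of the counting was not given in the sources used here. The library kit is MGIEasy in the methods and NEBNext in the labels.

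Counts were tested with edgeR 4.0.16 (filterByExpr, TMM, robust quasi-likelihood fit on all 9 libraries, two-sided) in R 4.3.3, with Benjamini-Hochberg adjustment over 14089 genes. DESeq2 1.42.0, limma 3.58.1 on log2(TPM + 1) or log2(TPM + 0.1) for genes averaging 1 TPM or more, and a filter at a mean of 10 counts were alternatives. TPM of single genes were compared by a two-sided exact permutation test. The scripts were tested on simulated data. The p-values measure the spread between these livers. Genes that overlap another gene or a near-identical copy (Cyp4a, Acot) may share reads.

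The 8 genes and the lists were chosen with earlier results of these data known. Named genes were the 8, fixed key genes of the pathway, up to 3 called genes of largest change per list and direction, the 5 smallest p-values between UTOpiA and empty, and the 3 nearest patterns per gene. The kinase and CPT1 shares and the genes named from the fit without empty replicate 2 were singled out after their values were seen. Counting error alone limits the depth of a value. Some listed genes enter the counts and are not reported here by name.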

Additional observations from a re-analysis of the deposited data

How the results depend on the processing

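The 8 genes were read again with DESeq2, median-of-ratios scaling, other filters, limma on log2 TPM, only the libraries compared, the replicate number as a block and each liver left out in turn; DESeq2 without empty replicate 2 was chosen after seeing the data. Of 456 alternative values of their log2 fold changes, 378 kept direction and call, 34 lost the call, 27 gained it and 17 changed sign; the cause was not tested. Depth was not varied.

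In the comparison of the empty group with normal livers, limma with a pseudocount of 1, of 0.1, or of 1 without a filter called 1 of the 8 lower (Acadm), and 690, 748 and 693 of all genes lower. On that TPM scale the median of all genes was 0.44 above normal at a pseudocount of 1, beside 0.045 with edgeR. The part of this shift in the smaller counts of lower genes was not tested. With no fold threshold 3036 genes were lower. DESeq2 without empty replicate 2 called 2 of the 8 higher and 3 lower, where 19.4% and 11.3% of all genes were. Fgf21 turned positive at 0.17, 0.16 and 0.17 in those limma settings and at 0.36 in DESeq2 without empty replicate 2, at 0.45 without normal replicate 3 and at 0.33 without empty replicate 2. Leaving out single livers, Fgf21 ranged from -0.66 to 0.45 and Pdk4 from -0.17 (without empty replicate 1) to 0.54, with -0.0099 without normal replicate 3. With each liver left out, 1 to 2 of the 8 were higher and 2 to 4 lower, and 2621 to 2981 genes were higher and 1336 to 1776 lower.

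Between UTOpiA and empty, DESeq2 called 51 genes higher and 74 lower with 3 of the 8 lower, and without empty replicate 2 it called 351 higher and 139 lower with 4 of the 8 lower (Fgf21 added). Unfiltered limma called 1 gene higher. Cpt2 turned to -0.10, -0.10 and -0.10 in the limma settings, to -0.21 in DESeq2 without empty replicate 2, and to -0.18, -0.018 and -0.052 without empty replicate 2, UTOpiA replicate 1 and UTOpiA replicate 3. Leaving out single livers, Cpt2 ranged from -0.18 to 0.27, Ppara from -0.55 to 0.27 (without empty replicate 1) and Ehhadh from -1.20 to 0.021 (without UTOpiA replicate 3). With each liver left out, 0 of the 8 were higher and 0 to 2 lower, and 0 to 32 genes were higher (32 without UTOpiA replicate 2) and 0 to 22 lower (22 without empty replicate 2).

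Between UTOpiA and normal, limma called 3 of the 8 lower with a pseudocount of 1, 4 with 0.1 and 2 with 1 and no filter; genes lower were 483, 524 and 473 in the 3 limma settings and 2285 with no fold threshold. With each liver left out, 0 of the 8 were higher and 2 to 7 lower, and 2091 to 2707 genes were higher and 725 to 1104 lower.

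The deviations of same-numbered livers correlated between -0.18 and 0.06, and a liver correlated best with its own number in another group in 4 of 18 cases. These values do not show whether same-numbered livers shared more than the number. With that number as a replicate block, 1 of the 8 was higher and 4 lower in the empty group, Ehhadh being added at -1.60, 0 were called between UTOpiA and empty, and Fgf21 was added between UTOpiA and normal at -1.67. Over all genes the block gave 2746 higher and 1532 lower, 0 and 0, and 2344 and 897.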
